A study of Mus musculus with 6 samples.

Results

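The genes described here are grouped as writers, erasers and readers of the methyl mark on cytosine in DNA. They are the writers Dnmt1, Dnmt3a and Dnmt3b, the erasers Tet1, Tet2 and Tet3, and the readers Mbd1, Mbd2 and Mbd3. The readers are grouped by family, and binding of each to methylated DNA was not measured. These 9 genes were listed by name, without use of any measured value, out of 22180 genes with a probe set (a group of array probes reported as 1 value) that paired with no other gene. Each of the 9 had exactly 1 such probe set. RNA was measured on Affymetrix Mouse Gene 2.0 ST arrays in neurospheres, floating colonies of neural stem and progenitor cells, from the subependymal region of CD1 mice, an outbred stock. In the PBS group, 3 offspring came from mothers given 2 intraperitoneal injections of PBS a day from gestational day 12 to birth. In the MG group, 3 offspring came from mothers given 0.5 mg/kg MG on the same schedule. MG is read here as methylglyoxal, a reactive by-product of glycolysis, from the title of the series. All offspring were 2 months old, and all cultures had 7 days in medium with EGF and FGF2, so every culture had grown with the same factors. Sample titles call the neurospheres primary and sample descriptions call them secondary, so the number of passages, and with it the whole time in culture, is not settled.

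Dnmt1 copies existing methylation onto the new strand after replication, and Uhrf1 brings it to half-methylated sites. Dnmt3a and Dnmt3b place methyl groups on sites that had none, and the Tet enzymes oxidise the methyl group, a step on the way to its removal. Mbd1, Mbd2 and Mbd3 belong to the methyl-CpG binding domain family, of which Mbd2 and Mbd3 are alternative subunits of the NuRD remodelling and deacetylase complex. In neural stem cells, Dnmt3a and the Tet enzymes are known for parts in neurogenesis and Mbd1 for a part in adult hippocampal neurogenesis. The comparison of MG with PBS asks whether RNA of this machinery in adult cells differed after the prenatal injections.

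The labels were set against markers first. All 8 measured neural stem and progenitor markers were above the reference level on every array, a log2 value of 5.02 below which 95% of 1390 olfactory and vomeronasal receptor genes lay. So were 8 of 8 astrocyte, 7 of 7 oligodendrocyte lineage and 7 of 8 neuroblast and neuron markers, so the levels do not single out stem and progenitor cells. Of the ependymal markers 4 of 6 were above it on every array, of the microglial markers 2 of 7, and of the endothelial and mural markers 1 of 8. The microglial list ran from a mean level of 4.68 to 4.79 on the 6 arrays, and Ptprc, the gene of the leukocyte antigen CD45, was below the reference on each. Replicate 3 of both groups stood apart on the first principal component, which held 44.1% of the variance: their scores were 21.0 and 37.6, against -21.3 to -9.86 on the others. Per-array values are therefore given for each gene, and results are also given without both replicates 3. The labels name neither sex nor litter, so animals of a group may have shared a mother. The p-values then measure the spread between these samples.

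Every one of the 9 genes was above the reference level in both groups, as were 61.8% of all genes tested. For none of the 9 did the difference between MG and PBS pass the test. Of the 9, 5 had higher and 4 lower means after MG, where 53.8% of all genes tested had higher means. The median log2 difference was 0.00 over the 9 genes and 0.01 over all genes. With limma's moderated test, 0 of the 9 passed a Benjamini-Hochberg adjusted p of 0.05 over all genes (0.0% of the 22180), and 0 had an unadjusted p under 0.05, which 3.21% of all genes had. The adjusted p of each of the 9 was 0.9998. Without both replicates 3, 2 of the 9 had higher means, Tet1 (0.16) and Tet2 (0.01), and again 0 passed. With all arrays, the groups did not overlap for 1 of the 9, Tet1, where 7.34% of all genes had no overlap. The log2 differences ran from -0.15 for Mbd2 to 0.15 for Tet1, inside the range from -0.20 to 0.24 that held the middle 90% of genes above the reference level. Other lists also leaned one way without a call: 8 of 8 astrocyte markers (median log2 difference 0.13) and 21 of 24 genes of DNA replication (0.05) had higher means after MG. Both leanings rested on single arrays, with 3 of 8 astrocyte markers higher without PBS replicate 3 or without MG replicate 1, and 0 of 24 replication genes higher without MG replicate 3 and 1 without PBS replicate 1. The part of these lists in the values of the 9 genes was not tested.

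**Figure D1:**
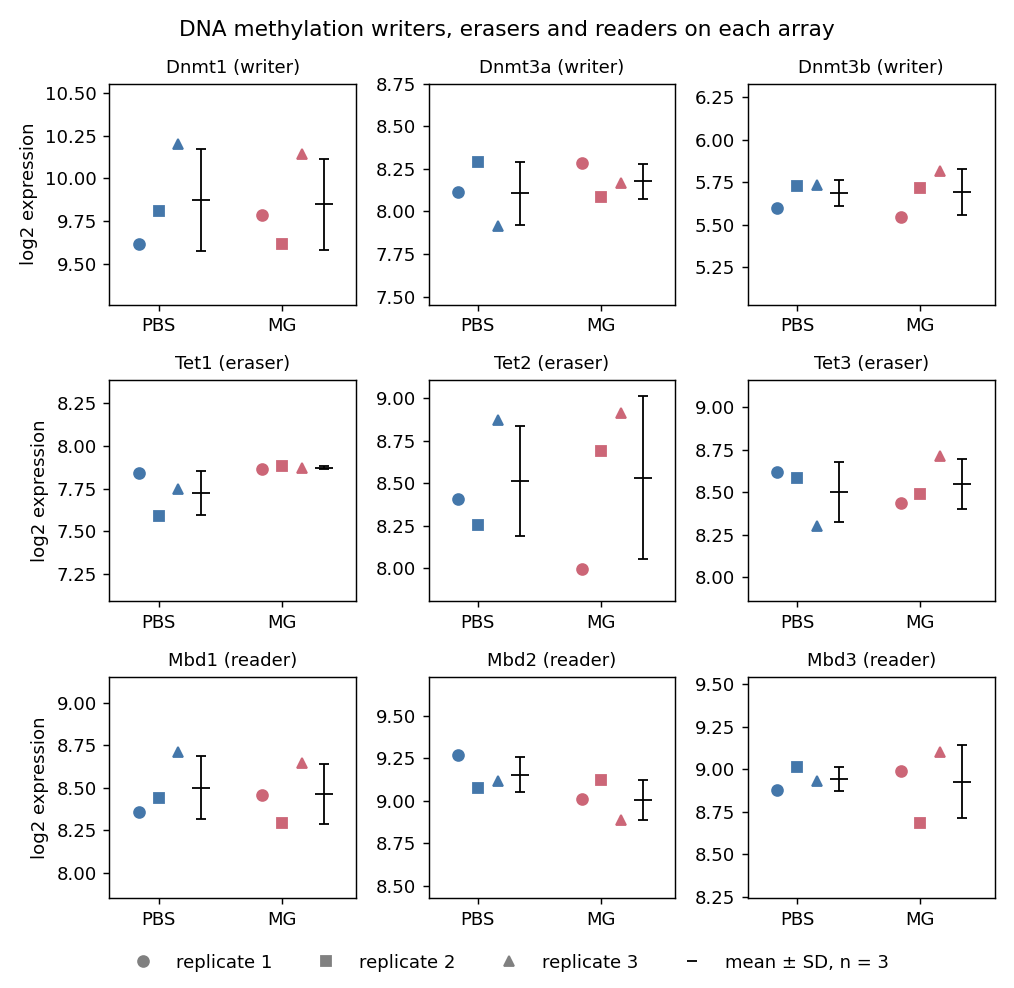
Log2 expression of each of the 9 genes on each array, in separate panels with axes of equal span, for PBS and MG cultures (3 each); marker shapes give the replicate number and black bars the mean ± SD. The groups overlap in every panel but that of Tet1, where the 3 MG values lie between 7.86 and 7.88 and the highest PBS value is 7.84; levels of different genes are not comparable.

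Among the writers, Dnmt1 varied more between cultures of a group than between groups. In PBS replicates 1, 2 and 3 its log2 values were 9.61, 9.81 and 10.20, and in MG 9.79, 9.61 and 10.14. Replicate 3 was thus the highest in each group, and the ranges of the groups overlapped almost completely. PBS had a mean of 9.87 ± 0.30 (SD, n = 3) and MG one of 9.85 ± 0.27 (SD, n = 3), which differed by -0.03 on the log2 scale (standard error 0.20). The 95% confidence interval ran from -0.48 to 0.42, so that an MG level of 0.718 to 1.34 times the PBS level was compatible with the data. A two-sided exact permutation test over the 6 arrays had p = 0.7, where the smallest p that 3 against 3 allows is 0.1. The sign of the difference was not stable: leaving out PBS replicate 3 gave 0.14 and leaving out MG replicate 3 gave -0.17.

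Dnmt1 followed the genes of DNA replication from array to array. Each of 24 replication and S phase genes was centred on its 6-array mean, and the list then averaged -0.42, -0.11 and 0.45 in PBS replicates 1, 2 and 3, and -0.12, -0.27 and 0.48 in the MG replicates. Dnmt1, on the same relative scale, had -0.25, -0.05 and 0.34 in the PBS replicates and -0.07, -0.25 and 0.28 in the MG replicates. Both were lowest in PBS replicate 1 and MG replicate 2, higher in MG replicate 1 and PBS replicate 2, and highest in the replicates 3. Replicate 3 was the highest of its group in both PBS and MG for 24 of the 24 replication genes, where 26.8% of genes above the reference level showed this. Of the 9 methylation genes, 4 did: Dnmt1, Dnmt3b, Tet2 and Mbd1. In RNA of whole cultures, fewer cells of a type and less RNA per cell cannot be told apart. Astrocyte markers moved the opposite way: 6 of 8 were lowest in replicate 3 of both groups, as were 23.6% of genes above the reference level, with list means of -0.40 and -0.41, where the remaining arrays had -0.02 to 0.38. The part of these lists in the level of Dnmt1 was not tested. With the replication list as a covariate in limma, the log2 difference of Dnmt1 between MG and PBS was -0.07, at an unadjusted p of 0.531.

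The partners of Dnmt1 in copying methylation shared the high values in the replicates 3, though not all of them the rest of the order. Uhrf1 had log2 values of 8.63, 9.04 and 9.60 in PBS and 9.0, 8.88 and 9.67 in MG. Hells, the chromatin remodeller Lsh, had 8.46, 8.54 and 9.33 in PBS and 8.38, 8.50 and 9.14 in MG. Hells was thus lowest in MG replicate 1. Its partner Cdca7 had 8.34, 8.69 and 9.08 in PBS and 8.48, 8.47 and 9.09 in MG. In each of these genes, replicate 3 was the highest culture of both groups, by 0.56 to 0.83 over the mean of the other two. Of the 7 genes for maintenance and targeting of methylation above the reference level, 6 showed this order, the exception being Usp7, a deubiquitinase that binds Dnmt1. Between groups, Uhrf1 differed by 0.10 on the log2 scale with a standard error of 0.29 (unadjusted p = 0.747 in limma).

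The promoter windows of Dnmt1, Uhrf1 and Hells are shown as examples of windows with matches to the binding letters of E2F factors, which are known for control of replication genes, and that of Dnmt3a as one without. Each window is RefSeq sequence of GRCm38.p6 from 250 bases before to 50 after an annotated start, written 5′ to 3′ on the gene's strand. Capitals mark matches on either strand to 3 spellings of the E2F site, TTTCGCGC, TTTGGCGC and TTTCCCGC. The windows are those of Dnmt1 at chr9:20952574-20952873 (minus strand), Uhrf1 at chr17:56304063-56304362 (plus), Hells at chr19:38930740-38931039 (plus) and Dnmt3a at chr12:3806730-3807029 (plus).
Dnmt1: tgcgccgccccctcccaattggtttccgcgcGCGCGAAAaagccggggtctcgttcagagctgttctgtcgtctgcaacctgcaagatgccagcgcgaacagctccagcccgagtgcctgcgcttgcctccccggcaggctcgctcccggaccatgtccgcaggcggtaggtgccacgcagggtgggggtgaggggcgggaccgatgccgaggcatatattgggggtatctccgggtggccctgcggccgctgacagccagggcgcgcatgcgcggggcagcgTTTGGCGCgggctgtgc
Uhrf1: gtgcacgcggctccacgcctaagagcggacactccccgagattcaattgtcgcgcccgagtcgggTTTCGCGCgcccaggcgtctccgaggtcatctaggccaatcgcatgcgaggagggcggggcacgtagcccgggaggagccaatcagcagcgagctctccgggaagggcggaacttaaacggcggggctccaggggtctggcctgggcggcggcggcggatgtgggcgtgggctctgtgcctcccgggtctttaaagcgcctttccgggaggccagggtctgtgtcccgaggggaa
Hells: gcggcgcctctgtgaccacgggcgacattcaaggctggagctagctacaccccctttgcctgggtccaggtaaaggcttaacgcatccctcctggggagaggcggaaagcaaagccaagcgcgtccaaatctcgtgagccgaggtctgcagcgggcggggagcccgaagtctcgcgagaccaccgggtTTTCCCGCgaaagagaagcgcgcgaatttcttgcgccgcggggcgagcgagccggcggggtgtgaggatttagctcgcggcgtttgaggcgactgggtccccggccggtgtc
Dnmt3a: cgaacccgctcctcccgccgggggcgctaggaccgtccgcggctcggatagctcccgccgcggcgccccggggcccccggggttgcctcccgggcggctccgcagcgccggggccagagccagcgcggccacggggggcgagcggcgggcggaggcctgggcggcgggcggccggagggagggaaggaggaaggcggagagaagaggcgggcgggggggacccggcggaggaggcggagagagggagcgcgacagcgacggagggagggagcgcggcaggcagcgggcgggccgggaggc

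The Dnmt1 window held 2 matches, TTTCGCGC on the opposite strand and TTTGGCGC on the gene's own, which lie apart and do not overlap. The Uhrf1 window held TTTCGCGC and that of Hells TTTCCCGC, 1 match each, while the other annotated Uhrf1 window held none. Of all 32851 windows of this length, 1.84% held a match, and of 25 windows of the replication genes 9 did. Each of the 3 spellings contains a CpG, and these windows were not matched for CpG content, so the shares are not like for like. RefSeq windows were matched for 7 of the 9 genes, 11 windows in all, and 1 of these 11, the Dnmt1 window shown, held a match. Those of Dnmt3a, Dnmt3b, Tet1, Tet2, Tet3 and Mbd3 held none of these letters. Matches did not go with the order of the replicates throughout: Dnmt3b, Tet2, Uhrf2, Zfp57 and Trim28 were also highest in replicate 3 of both groups and had none. Of 8 maintenance and targeting genes with a window, 3 had a match, Uhrf1, Hells and Cdca7. CpG pairs were dense in most windows: the Dnmt1 window held 33, the first Dnmt3a window 46 and the Tet2 window 57, against a median of 7 over all windows. The other Dnmt1 starts held 12 and 2. A match to these letters is a description and not a measured binding site, and methylation of these windows was not measured.

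Dnmt3a did not share the pattern of Dnmt1. In PBS its log2 values were 8.12, 8.29 and 7.92, and in MG 8.29, 8.08 and 8.17, so that PBS replicate 3 was the lowest culture of all. The means were 8.11 ± 0.19 (SD, n = 3) and 8.18 ± 0.10 (SD, n = 3), which differed by 0.07 on the log2 scale (standard error 0.14). The 95% confidence interval spanned -0.24 to 0.39. The values overlapped, and the two-sided exact permutation p was 0.7.

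Dnmt3b, the other de novo enzyme, lay closest to the reference level and was the least variable of the 9 genes. In PBS its log2 values were 5.60, 5.73 and 5.74, and in MG 5.55, 5.72 and 5.81, all above 5.02. The log2 difference, MG minus PBS, was 0.00 (standard error 0.12), and the interval from -0.28 to 0.29 corresponds to 0.824 to 1.22 times the PBS level. Dnmt3l, the cofactor of the de novo enzymes in germ cells, was below the reference level in both groups, with 4.94, 4.97 and 4.80 in PBS and 4.91, 5.10 and 4.71 in MG. No fold is given for it.

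**Figure D2:**
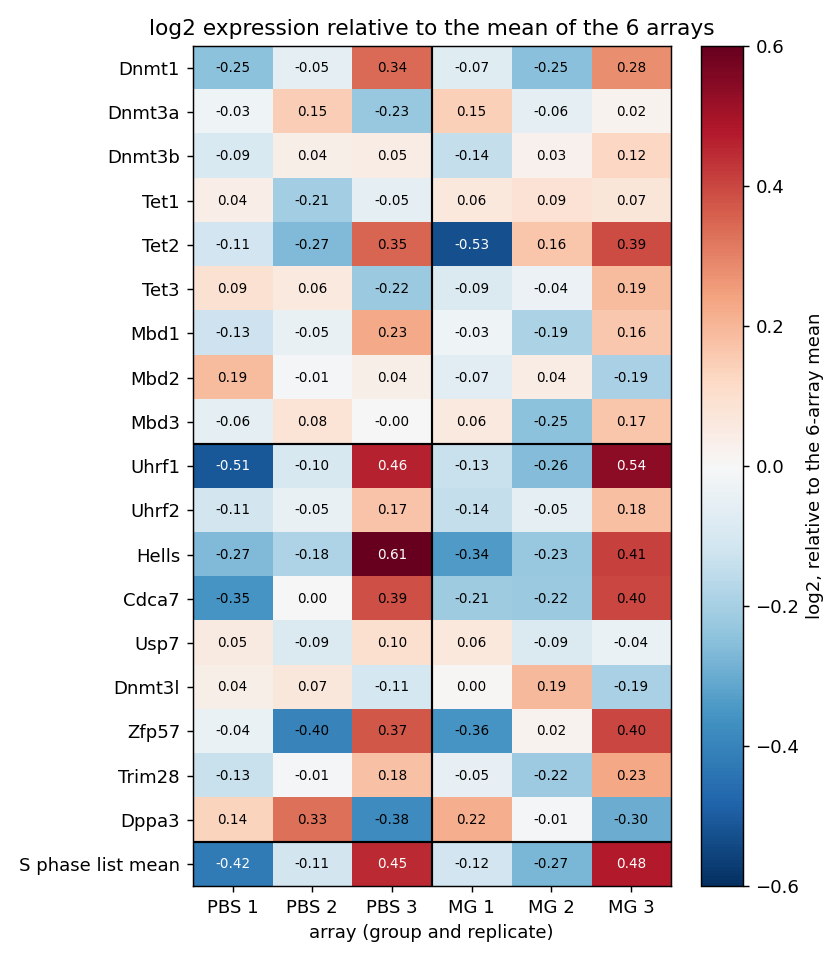
Log2 expression relative to the mean of the 6 arrays, for the 9 genes (top), the 9 genes for maintenance and targeting of methylation (middle) and the mean of 24 replication and S phase genes (bottom); columns are arrays by group and replicate, and the printed numbers are the plotted values. Replicate 3 is the highest of its group in both groups for Dnmt1, Dnmt3b, Tet2 and Mbd1, and for 6 of the maintenance genes, as for the replication list at 0.45 and 0.48.

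Among the erasers, Tet1 was the only one of the 9 genes whose groups did not overlap. In PBS its log2 values were 7.84, 7.59 and 7.75, and in MG 7.86, 7.88 and 7.87. The MG cultures were nearly alike and lay just above the highest PBS culture, by 0.02. The means were 7.72 ± 0.13 (SD, n = 3) and 7.87 ± 0.01 (SD, n = 3), which differed by 0.15 on the log2 scale, or 1.11-fold (standard error 0.12). The confidence interval from -0.12 to 0.42 included 0, and limma's p was 0.241 before and 0.9998 after adjustment. Its exact permutation p (two-sided) was 0.1, the smallest possible here. Of all genes, 4.03% had all 3 MG values above all 3 PBS values. Tet1 kept a higher mean after MG in the 11 alternative settings that can move the estimate, between 0.08 without PBS replicate 2 and 0.21 without PBS replicate 1.

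Tet2 varied most among the 9 genes. In PBS its log2 values were 8.41, 8.26 and 8.87, and in MG 8.0, 8.69 and 8.91, a range of 0.92 over the 6 arrays, or 1.89-fold. MG replicate 1 was the lowest culture and the replicates 3 were the highest of both groups. Its standard deviation over the 6 arrays, 0.36, was larger than that of 91.5% of genes above the reference level. The means were 8.51 ± 0.32 (SD, n = 3) and 8.53 ± 0.48 (SD, n = 3), which differed by 0.02 on the log2 scale (standard error 0.26). The confidence interval from -0.57 to 0.61 was the widest of the 9. Without MG replicate 1 the difference was 0.29, and without MG replicate 3 it was -0.17.

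Tet3 had log2 values of 8.62, 8.58 and 8.30 in PBS and 8.44, 8.49 and 8.71 in MG. Replicate 3 was the lowest culture in PBS and the highest in MG, unlike Tet2. The log2 difference, MG minus PBS, was 0.05 (standard error 0.14), and the confidence interval ran from -0.28 to 0.37. Without both replicates 3 it was -0.14.

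The readers had lower means after MG in 3 of 3 genes, where 46.2% of all genes tested had, and none passed the test. With 1 array left out, the log2 difference reached 0.068 for Mbd1 and 0.10 for Mbd3, so their sign was not stable. Mbd2 was the furthest of the 9 genes below its PBS mean, with log2 values of 9.27, 9.08 and 9.12 in PBS and 9.01, 9.12 and 8.89 in MG. The groups overlapped, since MG replicate 2 lay above PBS replicates 2 and 3. The means were 9.15 ± 0.10 (SD, n = 3) and 9.01 ± 0.12 (SD, n = 3), which differed by -0.15 on the log2 scale (standard error 0.12). The confidence interval ran from -0.43 to 0.14, the unadjusted p was 0.265 in limma, and the two-sided exact permutation p was 0.3. Its mean was lower after MG in the same 11 settings, by values from -0.21 to -0.09.

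Mbd1 had log2 values of 8.36, 8.44 and 8.71 in PBS and 8.46, 8.29 and 8.64 in MG, with replicate 3 the highest of both groups, as for Dnmt1. Its log2 difference, MG minus PBS, was -0.04 (standard error 0.15), and its confidence interval reached from -0.38 to 0.30. Mbd3 had 8.88, 9.02 and 8.93 in PBS and 8.99, 8.69 and 9.10 in MG, a difference of -0.02 with a standard error of 0.14. The PBS cultures of Mbd3 lay inside the range of the MG cultures.

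**Figure D3:**
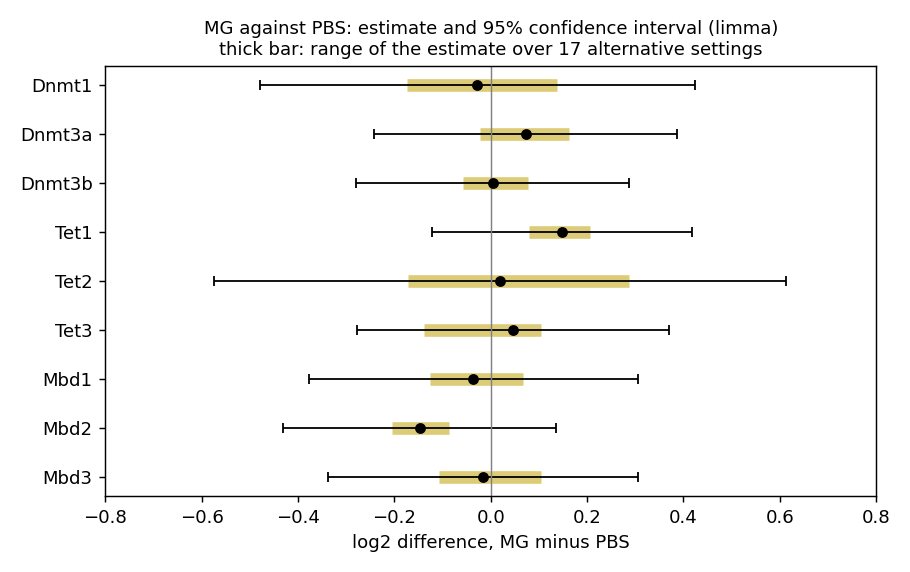
Log2 difference of MG minus PBS for each of the 9 genes (points), with the 95% confidence interval from limma (thin bars, 3 arrays against 3) and the range of the estimate over 17 alternative settings (thick bars). Every interval includes 0; the thick bars of Tet1 (0.08 to 0.21) and Mbd2 (-0.21 to -0.09) alone stay on 1 side of 0.

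The precision of the log2 differences varied between the genes. The intervals are not adjusted for the 22180 genes tested, so they do not give the smallest difference that the adjusted test could call. The confidence intervals reached from 0.27 (Tet1) to 0.59 (Tet2) to either side on the log2 scale, against a median of 0.34 for genes above the reference level. For Tet2 the bounds were 0.672 and 1.53 times the PBS level, for Tet1 0.919 and 1.34 times, and for Mbd2 0.742 and 1.10 times, so a shift that lay inside the interval of Tet2 could lie outside that of another gene.

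Further genes of DNA methylation were measured in 8 lists, which held 88 genes, of which 77 had a probe set of their own. The germline list holds targets of methylation and not its machinery. Tdg, the glycosylase that removes oxidised methylcytosine, was not matched to a probe set of its own, so no value is given for it. Of the 77 genes, 44 had higher and 33 lower means after MG, 0 passed the adjusted test in limma, and 1, Sycp1, had an unadjusted p under 0.05, as 3.21% of all genes had. The groups did not overlap for 3 of the 77, or 3.90%, where 7.34% of all genes had no overlap. Of these 3, Sycp1 and Tex101 are germline targets, and Zbtb33 is a reader. The medians of 7 of the 8 lists lay on both sides of 0 when 1 array at a time was left out, the exception being the CXXC-domain list.

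Among other readers and genes with a methyl-CpG binding domain, 5 of 9 had higher means (2 to 6 with 1 array left out), with a median log2 difference of 0.03. Zbtb33, which encodes the methyl-CpG reader Kaiso, had 8.88, 8.91 and 8.84 in PBS and 8.84, 8.80 and 8.76 in MG. Its MG cultures all lay below the PBS cultures, narrowly, which 3.31% of all genes showed. The difference was -0.08 (standard error 0.11), and its unadjusted p was 0.484. Mbd4, a reader that is also a repair glycosylase, differed by -0.03.

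The NuRD complex, which holds Mbd2 or Mbd3, had higher means in 9 of 11 genes, and the median difference was 0.04 (log2), with single genes between -0.12 (the deacetylase Hdac2) and 0.18 (the remodeller Chd3). All 11 were above the reference level. The lean was not stable: 4 of 11 were higher without PBS replicate 1 (median -0.0089), 6 without MG replicate 3, and 7 without both replicates 3. Base excision genes and Tet partners had higher means in 5 of 11 (3 to 6 with 1 array left out, median -0.02), from -0.10 for Ogt, the glycosyltransferase that binds Tet proteins, to 0.16 for the glycosylase Neil1. None of these genes had an unadjusted p under 0.05.

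The supply of the methyl donor and of the Tet cosubstrate showed the same lack of calls. Genes of the S-adenosylmethionine and folate cycles had higher means in 5 of 12 (3 to 8 with 1 array left out), with a median of -0.01. Ahcy, which hydrolyses the S-adenosylhomocysteine left by methyltransferases, differed by -0.14 with a standard error of 0.18. Shmt1, a folate enzyme, was highest in the replicates 3, at 8.54 in PBS and 8.56 in MG, against 7.66 to 7.85 elsewhere. Of the genes that make or use 2-oxoglutarate, the cosubstrate of the Tet enzymes, 5 of 7 had higher means (median 0.02), against 1 of 7 without both replicates 3. Idh1, the cytosolic isocitrate dehydrogenase, was lowest in the replicates 3, at 11.28 and 11.15, against 11.63 to 11.77 elsewhere, and differed between groups by -0.08 with a standard error of 0.20.

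CXXC-domain proteins, which bind CpG without methylation, had higher means in 7 of 7 genes, where 53.8% of all genes and 56.9% of those above the reference level did. The differences were small, from 0.03 for Cxxc5 to 0.13 for the H3K4 methyltransferase Kmt2b, with a median of 0.10, and 0 of 7 had groups that did not overlap, where 7.34% of all genes had. Without MG replicate 3 the count was 4 of 7, and without PBS replicate 3 or without both replicates 3 it was 5. The median was 0.05 without both and ran from 0.06 to 0.18 with 1 array left out. The smallest unadjusted p among them in limma was 0.409.

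Germline genes that promoter methylation keeps silent in body cells were at low levels in both groups. Of 11 measured, 1, the cohesin subunit gene Stag3, was above the reference level, with 5.67, 5.37 and 5.75 in PBS and 5.43, 5.57 and 5.94 in MG. Sycp1, a protein of the synaptonemal complex of meiosis, had 3.30, 3.55 and 3.24 in PBS and 3.65, 4.06 and 4.39 in MG. These values lay below the reference level on every array, so no fold is given, and the 3 MG values were above all PBS values. Limma's p on these dim values was 0.00909 before and 0.9998 after adjustment, and the unadjusted p was under 0.05 in 15 of 16 alternative settings. Tex101 went the other way without overlap, also below the reference level, with 4.65, 4.63 and 4.67 in PBS and 4.57, 4.50 and 4.25 in MG (unadjusted p = 0.129 in limma).

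**Figure D4:**
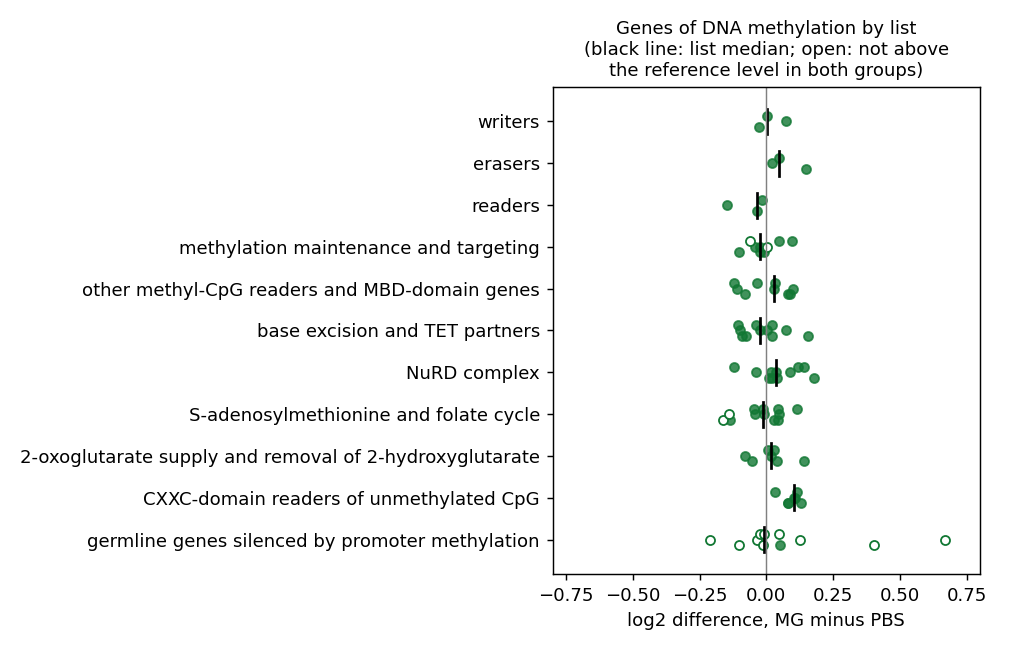
Log2 difference of MG minus PBS for each gene of the writers, erasers, readers and 8 further lists, that of germline genes holding targets of methylation. Each point is 1 gene, filled where above the reference level in both groups and open otherwise, and black lines are list medians. Medians lie between -0.04 and 0.10, and the point furthest from 0 is Sycp1; open points are too dim for a fold to be read from them.

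The genes whose log2 values over the 6 arrays were most alike to each of the 9 were found by Pearson correlation among 13703 other genes above the reference level. The arrays share their group and the distance of the replicates 3, and among so many genes some reach a high correlation over 6 arrays, so these are descriptions of likeness. They were Gspt1 (r = 0.997, Spearman's rho = 1.0) and Usp39 (0.996) for Dnmt1. They were Tufm (0.998) and Prkag1 (0.993) for Dnmt3a, and Cdk6 (0.997) and Tlnrd1 (0.995) for Dnmt3b. For Tet2 they were Fam172a (0.997) and Scn8a (0.996), and for Tet3 Rab38 (0.986) and Abhd15 (0.985). For Mbd1 they were Ranbp1 (0.997) and Tmem168 (0.994), and for Mbd3 Pi4k2a (0.996) and Orc5 (0.992). For Mbd2 they were 1700003F12Rik (0.985) and the probe set annotated to Mir181d (0.984). For Tet1, Opn3 (0.977) and Gnat1 (0.967) came first, but without the 2 arrays furthest from the median of Tet1 these fell to 0.37 and 0.08, so the likeness rests on those arrays.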

How the data were processed

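The authors deposited log2 expression values, 1 per probe set and array, for 6 arrays, which lie between 0.73 and 13.81. The log2 scale was inferred from this range. Per the submitters' processing notes they used Partek 6.6. How background was corrected and how arrays were normalised and summarised was not given in the sources used here. Array medians lay between 5.25 and 5.42. The number of arrays limits the precision.

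Of 41345 probe sets, 23521 named 1 gene in the platform's annotation (symbols matched to RefSeq, GRCm38.p6), 1814 several, and 16010 were unnamed here. The probe set with the highest mean over the arrays stood for a gene. MG was compared with PBS by limma 3.58.1 in R 4.3.3 (lmFit, eBayes, two-sided, no covariate, no filter on dim genes), with Benjamini-Hochberg adjustment over 22180 genes and a threshold of 0.05. The limma step was tested on simulated data whose added differences were far larger than those of the 9 genes. That test does not show how well differences of their size are found. Exact permutation tests and counts used Python 3.11.15. The 9 genes were listed by name, without use of any measured value. The other lists were chosen with earlier results of these data known. Named were the 9 genes, list members with an unadjusted p under 0.05, Uhrf1, Tdg and Dnmt3l, and the 2 genes most alike to each of the 9. Others were named after their values were seen, as examples of a list's range, lack of overlap or order of replicates. Alternatives covered dim genes, probe sets, normalisation, moderation, weights, a replicate block, a replication covariate and arrays left out.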

Additional observations from a re-analysis of the deposited data

How the results depend on the processing

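No setting of the 17 gave a gene past the adjusted threshold in limma. At an unadjusted p under 0.05, limma's main fit had 712 of 22180 genes (3.21%). The count was 294 without dim genes, where fewer genes were tested, and 1288 over all 41345 probe sets. Counts with unlike totals do not compare directly. Over the same 22180 genes the count ran from 416 without PBS replicate 1 to 1163 with array weights. Of the 17, 6 leave the log2 differences of the 9 genes as they are (dim genes, both of probe sets, both of moderation, and the block). Over the other 11 settings, 74 of 99 values kept their sign and 25 turned it, and 2 genes, Tet1 and Mbd2, never turned. Over all 17, 0 values of the 9 genes had an unadjusted p under 0.05 (lowest 0.114, Tet1 without moderation). The cause of the turns was not tested; for each of the 7 genes that turned, the difference was smaller than its standard error. The count of the 9 genes with higher means, 5, was 3 with the S phase covariate and 2 without both replicates 3, and ran from 2 to 6 with 1 array left out. With 1 array left out, the log2 difference ran from -0.17 to 0.14 for Dnmt1, -0.023 to 0.16 for Dnmt3a, -0.057 to 0.077 for Dnmt3b, -0.17 to 0.29 for Tet2, -0.054 to 0.10 for Tet3, -0.13 to 0.068 for Mbd1, -0.10 to 0.10 for Mbd3 and -0.15 to 0.35 for Uhrf1. Without both replicates 3 it was -0.016 for Dnmt3a, -0.033 for Dnmt3b and -0.14 for Tet3. Median centring gave -0.0035 for Dnmt3b, quantile normalisation -0.0038 for Tet2, and array weights -0.050 for Tet3. The S phase covariate gave -0.0062 for Dnmt3b and -0.017 for Tet2. List medians moved by more than the spread of the list mean within groups in 15 of 272 values. The unadjusted p of Sycp1 was 0.0529 without both replicates 3.

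The labels do not say whether replicate numbers pair the samples. The deviations of same-numbered arrays from their group means correlated at 0.22, 0.04 and 0.45 across genes, the last for the replicates 3. A replicate 3 correlated at -0.37 to -0.21 with arrays of other numbers, and PBS replicate 1 at 0.23 with MG replicate 2. Within a group of 3 arrays the deviations sum to 0, so these values cannot decide whether the numbers pair the samples. The replicate block leaves a balanced difference as it is, -0.03 for Dnmt1 and 0.15 for Tet1. It gave 0 genes past the adjusted threshold and 1063 with an unadjusted p under 0.05, against 712.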
